A study of Mus musculus with 9 samples.

Results

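Lipocalin 2 and the proteins that bind or handle iron beside it were examined in tumorspheres (TMS), mammospheres induced to differentiate (diffMMS) and mammospheres (MMS). The genes were Lcn2, lactotransferrin (Ltf), ceruloplasmin (Cp), transferrin (Trf), the transferrin receptor (Tfrc) and the heavy and light ferritin chains (Fth1 and Ftl1). A probe set was taken where the array annotation gave it exactly 1 gene symbol and that symbol was one of these 7. This gave 17 of the 22690 probe sets, for 5 of the 7 genes. They were 1 probe set for Lcn2, 1 for Ltf, 7 for Cp, 6 for Tfrc and 2 for Fth1. Trf shares its 1 probe set with another gene and the 3 probe sets of Ftl1 carry several symbols, so no value is given for either. Of the 17, 3 are Affymetrix control probe sets for Tfrc, which left 14 among the 22626 probe sets that were tested. The genes had been chosen by their measured differences between these same groups, above all that of Lcn2 between TMS and the other cultures. Their differences are therefore given as a description, with standard errors and with counts of probe sets past the threshold, and with no p value.

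The TMS were spheres cultured without attachment from mammary tumors of MMTV-Neu [N2O2] mice, in which the mouse mammary tumor virus promoter drives the Neu (Her2) oncogene. The MMS came from normal glands of FVB/N mice and shared the stem cell medium of the TMS, and the strain is labelled for diffMMS too. Spheres of both kinds were passaged every 7 days and taken between passages 3 and 5, and the diffMMS were mammosphere cells kept for 7 days on collagen in serum. Each group had 3 MOE430A arrays, TMS 1099A, 1100A and 1101A, diffMMS 861A, 862A and 863A, and MMS 858A, 859A and 860A. The labels call the populations independent but do not say which MMS and diffMMS came from the same glands, so the fit took the arrays as unpaired. Neither source describes a sort before culture. The TMS codes form a run apart from the other 6, so that a difference between TMS and the rest and a difference between array runs cannot be told apart. Values are log2 of the deposited intensity plus 8.67 after quantile normalization, and the median of all values on this scale was 6.57.

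Iron circulates bound to transferrin and enters cells when the complex is taken up through the transferrin receptor. Ceruloplasmin, a copper protein, oxidizes iron as it leaves cells through ferroportin, and ferritin stores it inside. Lipocalin 2 binds iron through siderophores, the small chelators with which bacteria scavenge it, and lactotransferrin binds iron directly in milk and other secretions. Both are stored in granules of neutrophils and are also made by epithelia, and lipocalin 2 is known to be raised in breast cancers. When iron is short, the iron regulatory proteins bind the Tfrc message and keep it stable, and they block translation of the ferritin messages, a step that an array does not measure.

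The sequences upstream of the 3 genes whose probe sets were higher in TMS than in both other cultures are shown first. They are the 250 bases before the annotated start of Lcn2 (chr2:32387740-32387989, minus strand), of Ltf (chr9:111019042-111019291, plus strand) and of the second of the 2 annotated starts of Cp (chr3:19956999-19957248, plus strand), from RefSeq on GRCm38.p6, and capitals mark a match to the C/EBP motif TTGCNNAA on either strand.
Lcn2: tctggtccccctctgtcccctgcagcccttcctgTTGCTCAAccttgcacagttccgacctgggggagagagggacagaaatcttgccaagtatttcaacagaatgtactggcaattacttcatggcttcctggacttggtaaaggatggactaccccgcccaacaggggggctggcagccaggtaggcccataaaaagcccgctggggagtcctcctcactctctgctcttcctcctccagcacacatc
Ltf: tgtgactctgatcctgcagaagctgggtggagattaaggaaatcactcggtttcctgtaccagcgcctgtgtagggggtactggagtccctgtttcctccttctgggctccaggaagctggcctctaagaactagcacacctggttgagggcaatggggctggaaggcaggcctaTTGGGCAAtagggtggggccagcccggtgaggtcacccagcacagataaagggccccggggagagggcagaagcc
Cp: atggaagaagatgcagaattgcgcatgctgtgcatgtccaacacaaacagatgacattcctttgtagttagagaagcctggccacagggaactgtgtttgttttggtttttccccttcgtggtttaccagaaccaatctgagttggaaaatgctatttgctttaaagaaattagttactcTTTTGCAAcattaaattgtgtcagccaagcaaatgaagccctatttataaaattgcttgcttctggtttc
The table of promoter windows, 250 bases before to 50 after a start, held 9 windows for 6 of the 7 genes, and none for Trf. The C/EBP motif was found in 1 window each of 4 of the 6 genes, Lcn2, Ltf, Cp and Fth1, and in 10.8% of all 32851 windows. The window of the first start of Cp, whose sequence is not printed here, held no match to it. Some genes have 2 windows and so more room for a match. The counts of genes here and below therefore cannot be set directly against the shares of windows. The first base of the match lies 216 bases before the start in Lcn2, 75 before it in Ltf and 70 before it in Cp, and none of the 3 overlaps a match to the other motifs searched. The NF-kappaB motif GGGNNNNNCC was in windows of all 6 genes, against 50.8% of all windows. Of the other motifs, all read on both strands, the TATA box TATAAA was in windows of Cp, Ftl1 and Fth1 (13.6% of all windows). The hypoxia response element ACGTG was in those of Tfrc (19.6%). The loop of the iron-responsive element, CAGTG, was in those of Ftl1 and Tfrc (55.9%). These matches lie 243 bases before the start in Ftl1 and 60 before it, on the minus strand, in Tfrc. Neither is thus in the annotated message, where the iron regulatory proteins bind. The STAT motif TTCNNNGAA (8.30%), the antioxidant response element TGACNNNGC (12.4%) and the glucocorticoid receptor motif GAACANNNTGT (0.971%) were in none of the 9 windows. These matches describe letters in the windows and say nothing of binding.

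Lcn2 had log2 intensities of 12.36, 12.05 and 12.50 in TMS, 6.33, 6.56 and 6.49 in diffMMS and 6.34, 6.96 and 7.33 in MMS. The 3 tumor cultures stood apart from all 6 others, and the lowest of them lay more than 4 log2 units above the highest MMS array. The difference was 5.42 between TMS and MMS, or 42.9-fold, and 5.84 between TMS and diffMMS, or 57.4-fold (standard error 0.199 for each difference of this probe set). Among the normal cultures MMS were more spread (SD 0.499) than diffMMS (SD 0.12), and the 2 groups overlapped. The diffMMS minus MMS difference of -0.42 was not past the threshold, but it was -0.69 and past it when MMS array 858A, the lowest of the group, was left out.

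The markers of luminal epithelium moved with Lcn2. Of 17 listed genes, 16 were measured, and 11 were higher in TMS than in MMS and 12 higher than in diffMMS, with none lower (at an unadjusted p under 0.05, none against MMS and 1 against diffMMS). Over all genes, 6.22% were higher and 7.14% lower than in MMS, and 12.3% higher and 12.6% lower than in diffMMS. The summed intensity of the luminal markers was 5753 to 8758 in TMS, 1232 to 1489 in diffMMS and 1161 to 1247 in MMS. The keratin gene Krt18 averaged 10.20 in TMS, 5.49 in diffMMS and 5.93 in MMS, and 4 of the 16 genes were dim in all diffMMS arrays and 4 in all MMS arrays. The fibroblast markers, summing to 27792 to 33342 in TMS, 36211 to 37302 in diffMMS and 32775 to 34735 in MMS, were bright in every group, cultures labelled as mammary spheres included. In bulk RNA, more cells of a type and more RNA per cell cannot be told apart.

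Markers of neutrophils, in which lipocalin 2 and lactotransferrin are granule proteins, did not move in this way. Of 19 listed genes 14 were measured, and 1 (S100a8) was higher and none lower in TMS than in MMS, while 1 was higher and 2 lower in TMS than in diffMMS. These counts lie near the shares over all genes, 6.22% higher and 7.14% lower against MMS and 12.3% and 12.6% against diffMMS. The summed intensity of the neutrophil markers was 888 to 1019 in TMS, 968 to 1110 in diffMMS and 880 to 949 in MMS. Ngp, a neutrophil granule gene, averaged 6.67 in TMS, 7.10 in diffMMS and 6.69 in MMS, and Elane, neutrophil elastase, averaged 7.57, 7.69 and 7.42 in the same groups. Macrophage markers did differ between TMS and MMS, with 7 of 16 measured genes higher in TMS and none lower, against 6.22% and 7.14% of all genes. In TMS against diffMMS 3 were higher and none lower, not far from the shares of 12.3% and 12.6%. The summed intensity of the macrophage markers was 1760 to 2949 in TMS, highest in 1100A, 1113 to 1673 in diffMMS and 955 to 1050 in MMS. The Lcn2 values of the TMS arrays ran only from 12.05 to 12.50, with 1100A lowest, and so few arrays cannot show a source. The part of these cells in the values of Lcn2 was not tested.

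**Figure D1:**
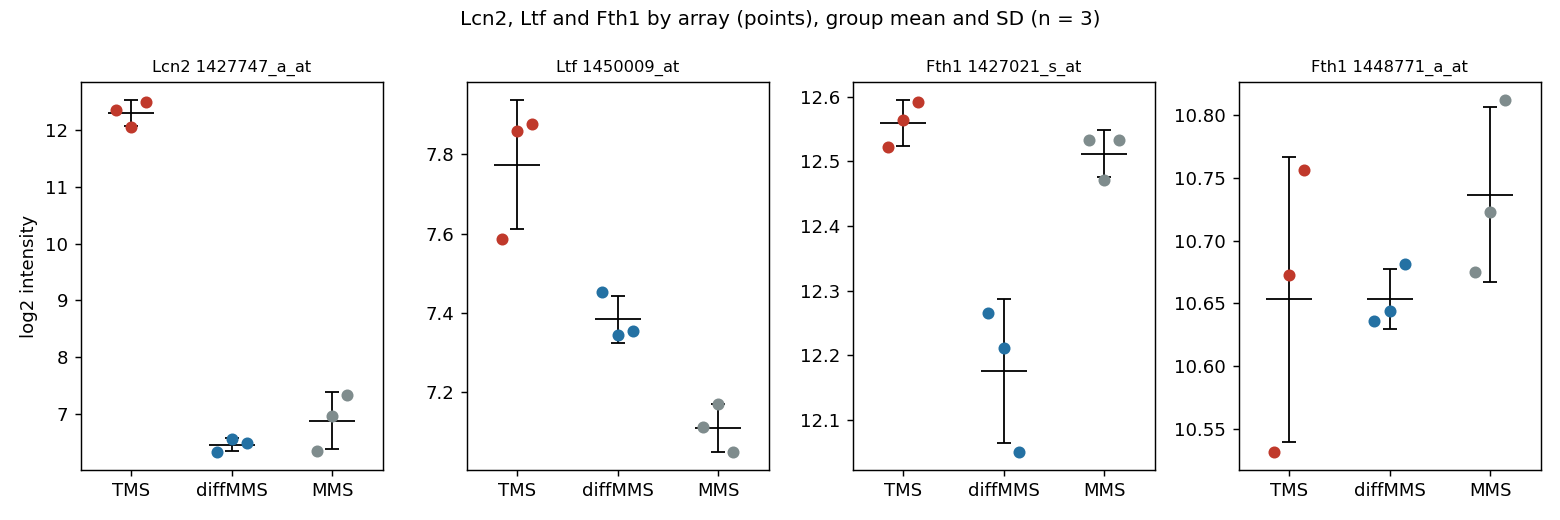
Log2 intensity (vertical axes, a separate range in each panel) of Lcn2, Ltf and the 2 Fth1 probe sets in TMS, diffMMS and MMS, with 1 point per array and bars for the group mean and SD (n = 3 arrays). The TMS points of Lcn2 lie between 12.05 and 12.50, above every other point, whereas the 9 points of Fth1 1448771_a_at span less than 0.3 log2 units.

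Ltf, the gene of lactotransferrin, had 7.59, 7.86 and 7.88 in TMS, 7.45, 7.34 and 7.35 in diffMMS and 7.11, 7.17 and 7.05 in MMS. The groups lay in this order with no overlap, over a range that was small beside that of Lcn2. The difference was 0.66 between TMS and MMS (standard error 0.0886, 1.58-fold), 0.39 between TMS and diffMMS and 0.27 between diffMMS and MMS, all past the threshold. The last of these fell short of it in 8 of 18 alternatives, among them the values as deposited and the fits without any single MMS or diffMMS array.

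Cp was higher in TMS on the 5 of its 7 probe sets that were bright in some array. Bright means not below the lower quartile of all values (log2 5.57) in all 9 arrays. Probe set 1448734_at passed this only through its TMS values, so that the agreement of the 5 is in part set by the filter. On 1455393_at the values were 9.07, 9.64 and 9.59 in TMS, 6.95, 6.51 and 6.74 in diffMMS and 5.62, 5.88 and 5.99 in MMS. TMS exceeded MMS by 3.60 (standard error 0.158, 12.2-fold) and diffMMS by 2.70 (6.52-fold), and diffMMS exceeded MMS by 0.90 (1.87-fold). The 3 groups thus formed steps with no overlap.

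The same order was seen on 1417494_a_at, with 9.42, 9.85 and 9.69 in TMS, 8.0, 7.63 and 7.78 in diffMMS and 7.02, 6.65 and 7.07 in MMS. On 1417495_x_at, whose probes may also match other sequences, the values were 8.93, 9.25 and 9.19 in TMS, 6.98, 6.87 and 6.87 in diffMMS and 6.10, 6.19 and 6.18 in MMS. TMS exceeded MMS by 2.74 and 2.97 on these 2 probe sets, and diffMMS exceeded MMS by 0.89 and 0.75. The 3 probe sets kept all of their calls in every alternative.

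The remaining bright probe sets of Cp were dimmer. On 1417496_at the values were 7.06, 7.80 and 7.86 in TMS, 5.80, 5.84 and 5.72 in diffMMS and 5.34, 5.15 and 5.34 in MMS. On 1448734_at they were 7.01, 7.51 and 7.36 in TMS, 5.21, 5.11 and 5.19 in diffMMS and 4.80, 4.89 and 5.08 in MMS. TMS stood above both other groups on each, by 2.30 and 2.37 against MMS and by 1.79 and 2.12 against diffMMS. The step between diffMMS and MMS was less sure here. It was 0.51 on 1417496_at, past the threshold but not in 7 of 18 alternatives, and 0.24 on 1448734_at, not past it but past it in 3 of 18. All MMS values on both, and all diffMMS values on 1448734_at, lay below the lower quartile of all values (log2 5.57).

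Across the 5 bright probe sets TMS exceeded MMS by 4.91-fold to 12.2-fold and diffMMS by 3.45-fold to 6.52-fold. Among them 1448734_at was bright in TMS alone. Array 1099A was the lowest of the TMS arrays on all 5, and 1100A the highest on 4. The other 2 probe sets, 1417497_at and 1448735_at, were below the lower quartile of all values (log2 5.57) in all 9 arrays. They ranged from 5.12 to 5.38 and from 4.46 to 4.87, and the only difference past the threshold on either was 0.26 between TMS and MMS on 1448735_at, which was lost without MMS array 860A. Probe sets of 1 gene read the same RNA and are not independent measurements. Array 1100A, highest for Cp on 4 probe sets, also had the highest sum of macrophage markers. Array 1101A came close to it for Cp (9.59 against 9.64 on 1455393_at) and was the highest on 1417496_at. The order of 3 arrays cannot show a source, and the part of macrophages in Cp was not tested.

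**Figure D2:**
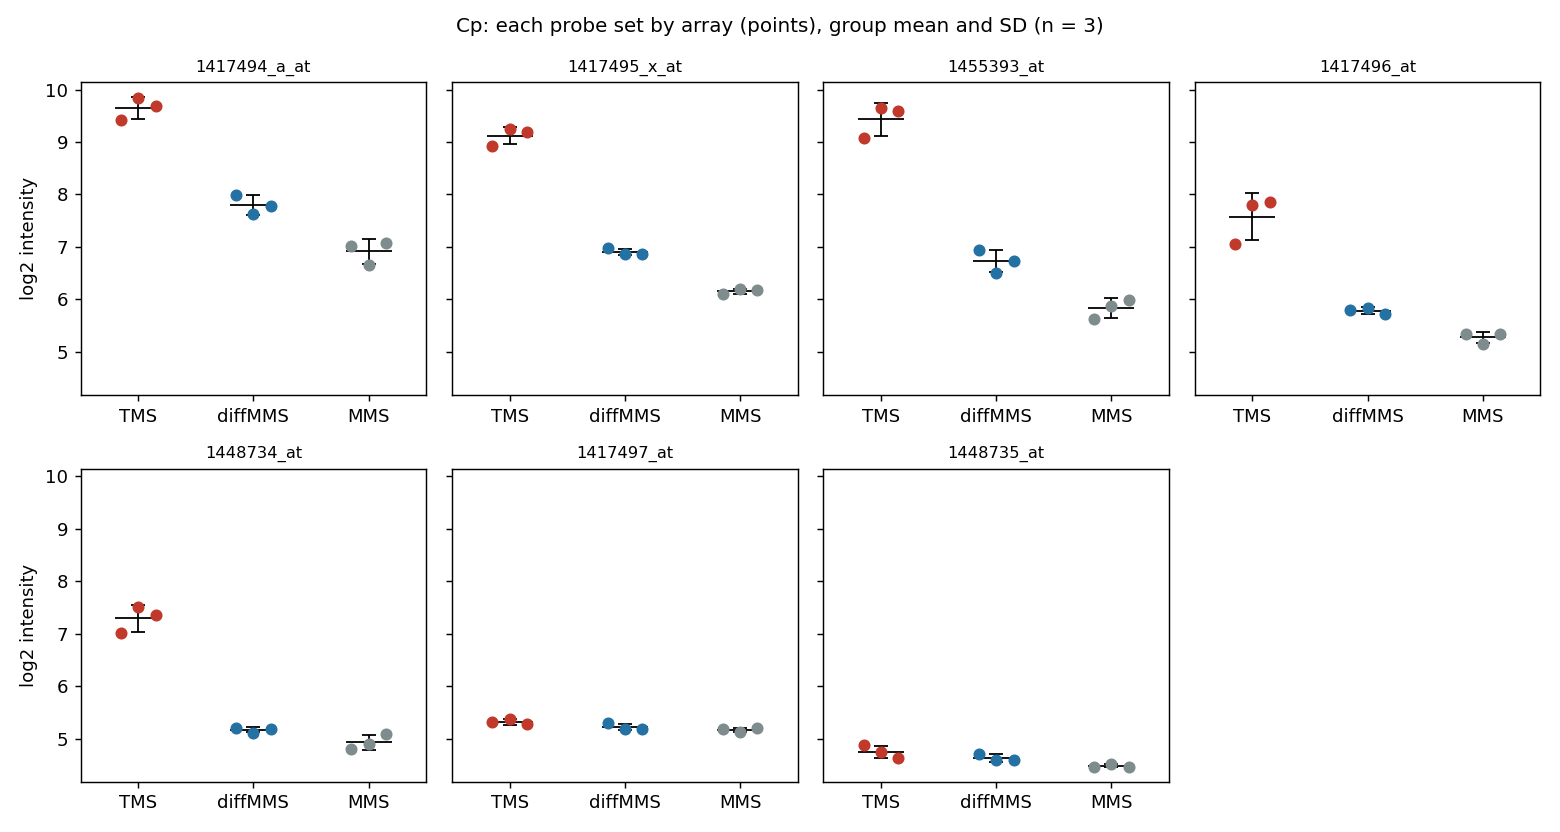
Log2 intensity (vertical axes, one common range) of the 7 Cp probe sets in TMS, diffMMS and MMS, with 1 point per array and bars for the group mean and SD (n = 3 arrays). On 5 panels the TMS points lie above all others and the diffMMS means lie above the MMS means, and on 1417497_at and 1448735_at all points lie under 5.57.

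Tfrc, the receptor that takes up transferrin-bound iron, parted the cultures differently, since its low group was diffMMS. On 1452661_at the values were 8.85, 7.75 and 7.70 in TMS, 6.11, 6.09 and 6.34 in diffMMS and 8.23, 8.07 and 7.72 in MMS. TMS and MMS overlapped, and both lay above every diffMMS array. TMS exceeded diffMMS by 1.93 (standard error 0.249, 3.80-fold), diffMMS lay below MMS by a difference of -1.83 (3.55-fold lower), and the TMS minus MMS difference of 0.10 was not past the threshold and ran from -0.28 to 0.30 over the alternatives. Both calls held in all 18 alternatives. The deposited intensity of this probe set was 207 in TMS arrays 1100A and 1101A and in MMS array 860A, the same value to the last digit. Such a repeat between arrays was found in 8340 of the 22690 probe sets, and how the authors' summary produces it is not given in the sources used here.

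On 1422966_a_at the values were 7.50, 6.89 and 6.70 in TMS, 6.38, 6.33 and 6.37 in diffMMS and 6.82, 6.78 and 6.69 in MMS. Here too diffMMS was lowest, with smaller steps to it than on 1452661_at. TMS exceeded diffMMS by 0.67 (standard error 0.156), and the diffMMS minus MMS difference of -0.41 was not past the threshold, although the groups did not overlap and 4 of 18 alternatives called it. On 1422967_a_at, with 5.79, 5.09 and 5.16 in TMS, 5.02, 5.10 and 5.05 in diffMMS and 5.10, 4.98 and 4.95 in MMS, no difference was past the threshold. Only the value of TMS array 1099A there lay above the lower quartile of all values (log2 5.57), so this probe set could show little.

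Array 1099A was the highest TMS array on all 6 Tfrc probe sets, the 3 controls included, and it was the lowest TMS array on the 5 bright probe sets of Cp. The control probe sets, which read the 3′ end, the middle and the 5′ end of the Tfrc message to show RNA quality, were dim in all arrays. The 3′ probe set had 5.44, 5.21 and 5.37 in TMS, 5.06, 5.00 and 5.10 in diffMMS and 5.22, 5.25 and 5.18 in MMS, so that diffMMS was lowest there too. Its excess over the 5′ probe set was 0.668 to 0.741 in TMS, 0.512 to 0.663 in diffMMS and 0.643 to 0.740 in MMS. For Actb it was 0.275 to 0.447 in TMS, 0.302 to 0.390 in diffMMS and 0.364 to 0.662 in MMS.

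Proliferation genes moved with Tfrc between diffMMS and the spheres. All 14 measured of 16 listed were lower in diffMMS than in MMS and higher in TMS than in diffMMS, and 13 were lower in TMS than in MMS, a comparison in which no Tfrc probe set was past the threshold. Over all genes the shares were 16.2%, 12.3% and 7.14% in the same order. The summed intensity of the proliferation genes was 2955 to 3073 in TMS, 1608 to 1634 in diffMMS and 4073 to 4141 in MMS. The part of proliferation in the level of Tfrc was not tested.

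**Figure D3:**
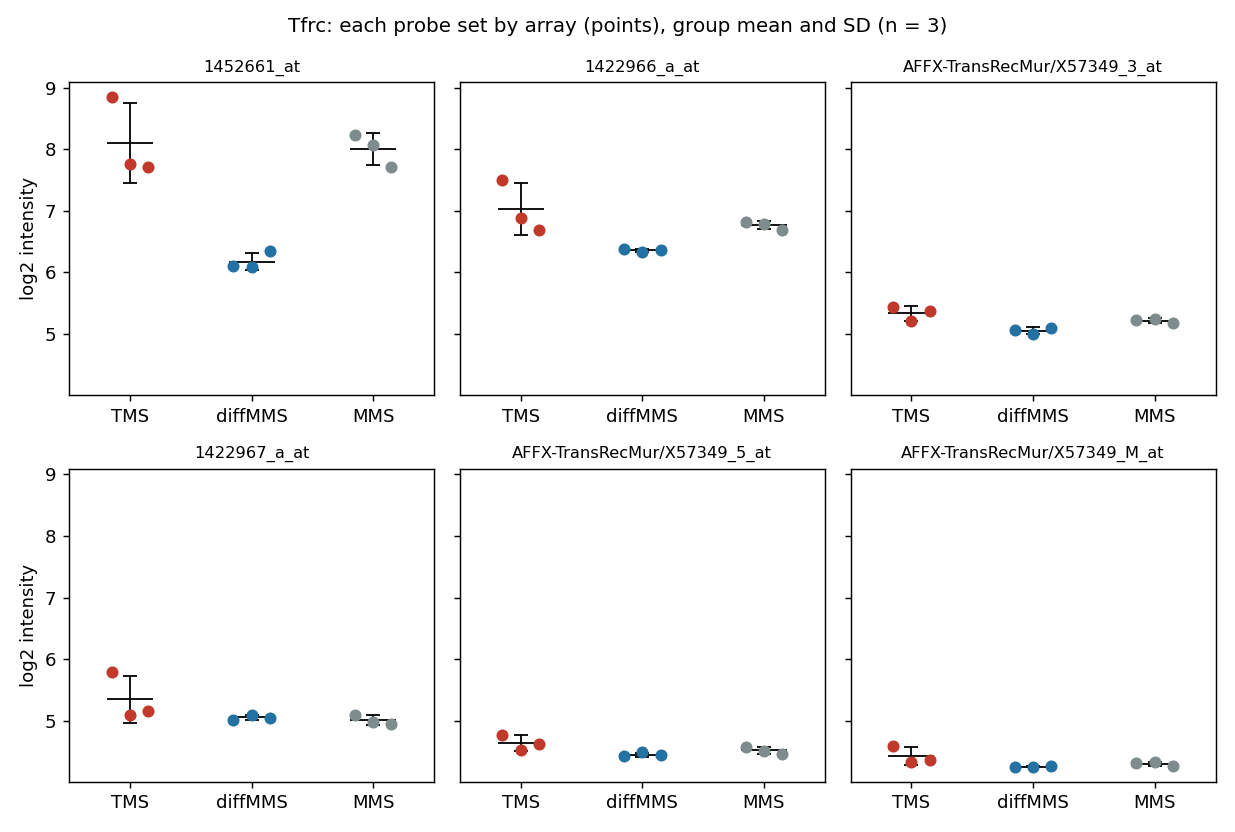
Log2 intensity (vertical axes, one common range) of the 6 Tfrc probe sets, 3 of them Affymetrix controls whose names begin with AFFX, in TMS, diffMMS and MMS, with 1 point per array and bars for the group mean and SD (n = 3 arrays). On 1452661_at the diffMMS points lie at 6.09 to 6.34 and all others at 7.70 or above, and in every panel the highest TMS point is array 1099A.

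Fth1, the ferritin chain that oxidizes iron for storage, was bright and nearly level. On 1427021_s_at it had 12.52, 12.56 and 12.59 in TMS, 12.27, 12.21 and 12.05 in diffMMS and 12.53, 12.47 and 12.53 in MMS. As with Tfrc, the low group was diffMMS and TMS and MMS overlapped. TMS exceeded diffMMS by 0.38 (standard error 0.0700, 1.31-fold) and diffMMS minus MMS was -0.34, both past the threshold in the main fit and in all 18 alternatives, while TMS minus MMS was 0.05. The suffix s marks probes that match more than 1 transcript, so signal from near-identical ferritin copies cannot be told apart from that of Fth1.

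On 1448771_a_at the values were 10.53, 10.67 and 10.76 in TMS, 10.64, 10.64 and 10.68 in diffMMS and 10.67, 10.72 and 10.81 in MMS. All 3 groups overlapped, and no difference was past the threshold. TMS minus diffMMS was -0.00 with a standard error of 0.0751, and the other 2 differences were -0.08. The 2 probe sets of Fth1 thus did not show the same pattern. With arrays centred on their medians in place of quantile normalization, diffMMS minus MMS on 1448771_a_at was -0.35 and past the threshold.

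Over the 14 tested probe sets, 8 were higher and none lower in TMS than in MMS (3 genes, Lcn2, Ltf and Cp), where 6.5% of all probe sets were higher and 7.78% lower. Against diffMMS, 10 were higher in TMS and none lower (all 5 genes), where 12.2% of all probe sets were higher and 11.4% lower. Between diffMMS and MMS, 5 were higher (Ltf and 4 of Cp) and 2 lower (1 each of Tfrc and Fth1), where 16.1% of all probe sets were higher and 17% lower. The median difference over the 14 was 0.50, 1.23 and 0.10 in the same order, against -0.00, -0.02 and 0.03 over all probe sets. 7 of the 14 belong to Cp, and the genes were chosen with these comparisons known, so that nothing is read from the counts. At an unadjusted p under 0.05 none of the 14 was lower in TMS than in MMS or diffMMS. The 3 comparisons share arrays pairwise. Centring on array medians changed 2 calls of the members, both between diffMMS and MMS, where Ltf (0.21) was no longer called and Fth1 1448771_a_at (-0.35) was called lower. It also moved the split over all probe sets, with 1220 higher and 2366 lower in TMS than in MMS against 1471 and 1760 after quantile normalization, and 2875 higher and 4691 lower in diffMMS than in MMS against 3643 and 3846.

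**Figure D4:**
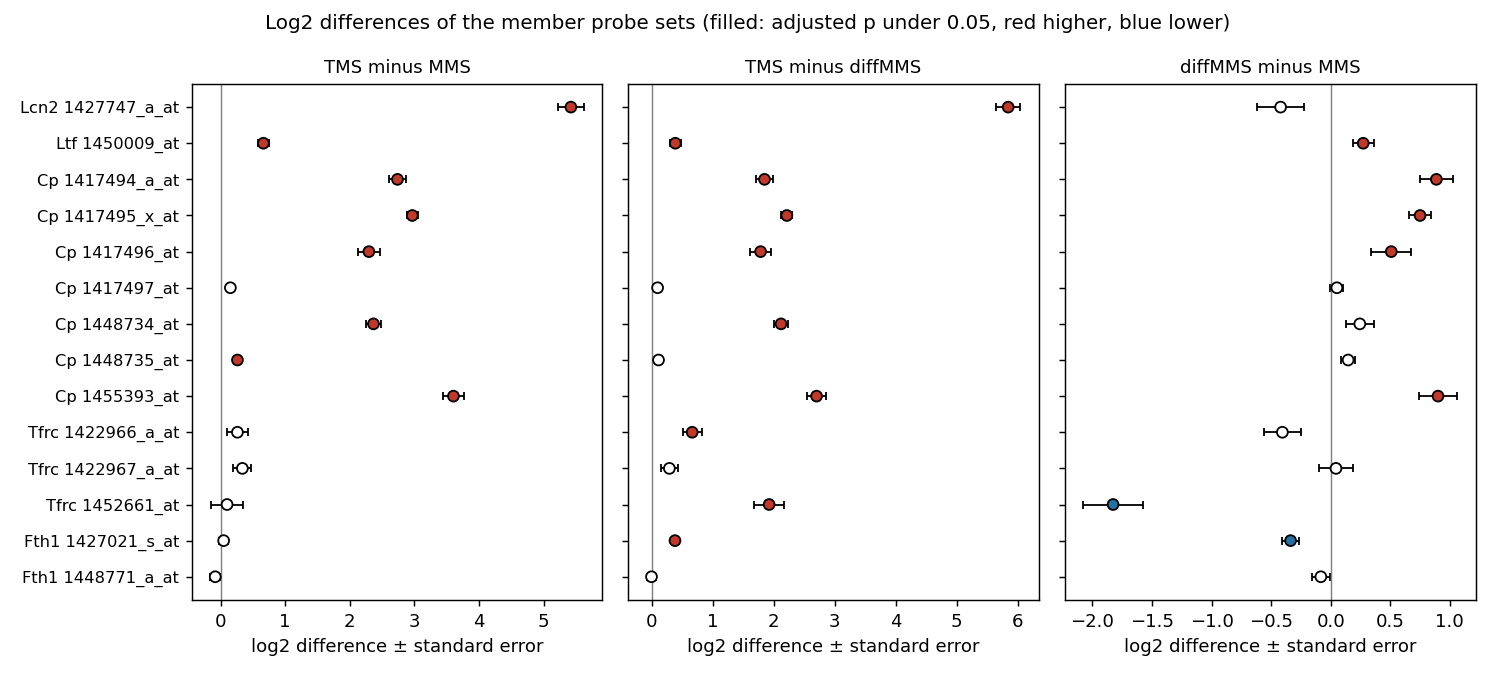
Log2 differences (horizontal axes, with standard errors as bars) of the 14 tested probe sets for TMS minus MMS, TMS minus diffMMS and diffMMS minus MMS. Filled points have an adjusted p under 0.05 in limma, red for higher and blue for lower, and Lcn2 lies farthest to the right at 5.42 and 5.84 in the first 2 panels while Tfrc 1452661_at lies farthest to the left at -1.83 in the last.

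The other genes of iron handling were followed from lists drawn up by textbook role, with the brightest probe set of each gene. The lists were chosen with earlier results of these data known. Genes named from them have the largest called changes, so their adjusted p values describe chosen genes. Of 75 listed genes 59 were measured. In TMS against MMS 3 were higher and 6 lower, where 6.22% of all genes were higher and 7.14% lower. In TMS against diffMMS 8 were higher and 16 lower, where 12.3% were higher and 12.6% lower, and in diffMMS against MMS 16 were higher and 11 lower, where 17.9% were higher and 16.2% lower. The lists' median differences of -0.01, -0.04 and 0.09 lay close to those of all genes, 0.00, -0.03 and 0.05.

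Of the 23 measured genes of iron uptake, export and reduction, 2 were higher and 2 lower in TMS than in MMS. Over all genes 6.22% were higher and 7.14% lower there. Slc40a1, which encodes the iron exporter ferroportin, averaged 7.28 ± 0.0657 in TMS, 8.0 ± 0.128 in diffMMS and 7.73 ± 0.131 in MMS (SD, n = 3 each). It was lower in TMS than in MMS by a difference of -0.45 (adjusted p = 0.00622, limma) and than in diffMMS by -0.72 (adjusted p = 1.19e-04), and its other probe set was called in the same direction in both. Heph, hephaestin, a membrane ferroxidase related to ceruloplasmin, was likewise lower in TMS than in MMS (-0.36, adjusted p = 0.00429) at a low intensity, 4.63 in TMS, 4.96 in diffMMS and 4.98 in MMS. The exporter was thus lower in TMS, where Cp was higher. The same direction of Heph rests on 1 probe set that lay below the lower quartile of all values (log2 5.57) in all 9 arrays. Between diffMMS and MMS, where Cp was also higher on 4 probe sets, Slc40a1 was higher by 0.27 (adjusted p = 0.0409), a call lost in 6 of 18 alternatives and not shared by its other probe set (-0.15), and Heph differed by -0.02 (adjusted p = 0.835). Slc39a14, a transporter of iron and zinc, was higher in TMS than in MMS (0.36, adjusted p = 0.0109) and again on its other probe set (0.71), but the first value was not called as deposited or after centring. Meltf, melanotransferrin, a transferrin relative at the cell surface, was higher in TMS by 0.44 (adjusted p = 0.018), a call lost in 4 of 18 alternatives.

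Scara5, a receptor for ferritin, resembled Tfrc in its low group. It averaged 8.40 in TMS, 7.39 in diffMMS and 8.19 in MMS, with a difference of 1.01 between TMS and diffMMS (adjusted p = 7.75e-04) and -0.80 between diffMMS and MMS (adjusted p = 0.00283), though its other, not called, probe set gave -0.01 and 0.10. Slc25a37, mitoferrin, which carries iron into mitochondria, was also lowest in diffMMS, by 0.60 from TMS (adjusted p = 0.0109) and -0.90 against MMS (adjusted p = 6.69e-04). Tfr2, the second transferrin receptor, ran the other way. It was lower in TMS than in diffMMS (-0.42, adjusted p = 0.015) and higher in diffMMS than in MMS (0.39, adjusted p = 0.0165), a call lost in 3 of 18 alternatives, and its other probe set, not called, gave -0.09 and 0.14. Steap1 of the STEAP reductase family was higher in diffMMS than in MMS by 0.33 (adjusted p = 0.0147), with 0.12, not called, on its other probe set.

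The list of regulators had 8 measured genes of 14, of which none was higher and 4 lower in TMS than in diffMMS (0 and 5 at an unadjusted p under 0.05), and 5 were higher and 1 lower in diffMMS than in MMS. Over all genes, 12.3% were higher and 12.6% lower in TMS than in diffMMS. Between diffMMS and MMS the shares were 17.9% higher and 16.2% lower. Neo1, neogenin, a co-receptor in hepcidin control, averaged 8.07 in TMS, 9.13 in diffMMS and 8.36 in MMS (TMS minus diffMMS -1.06, adjusted p = 4.78e-06). Hfe, which binds the transferrin receptor, averaged 6.61 in TMS, 7.25 in diffMMS and 6.79 in MMS (TMS minus diffMMS -0.64, adjusted p = 3.13e-04), but its other probe set, not called, gave -0.08. On the probe sets averaged here, both were highest in the cultures in which Tfrc was lowest. Ireb2, iron regulatory protein 2, which stabilizes the Tfrc message, averaged 6.82 in TMS, 6.83 in diffMMS and 7.23 in MMS. It was lower than in MMS in both, by -0.42 in TMS (adjusted p = 0.0172) and by -0.40 in diffMMS (adjusted p = 0.00989), and either call was lost without MMS array 859A.

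Among 18 measured genes of haem synthesis, transport and breakdown, Alad, the second enzyme of haem synthesis, averaged 7.84 in TMS, 6.36 in diffMMS and 8.26 in MMS. It was higher in TMS than in diffMMS by 1.48 (adjusted p = 4.81e-06) and lower in diffMMS than in MMS (-1.90, adjusted p = 5.09e-07), while its -0.42 between TMS and MMS (adjusted p = 0.0467) was lost in 9 of 18 alternatives. Abcg2, an exporter of porphyrins and drugs, averaged 6.60 in TMS, 6.05 in diffMMS and 7.29 in MMS and was lower in TMS than in MMS (-0.70, adjusted p = 0.00226). Alad and Abcg2 were thus lowest in diffMMS, as Tfrc was. Blvrb, a biliverdin reductase, was higher (0.65, adjusted p = 4.35e-04) and Hmox1, haem oxygenase, lower (-0.59, adjusted p = 0.00614) in TMS than in diffMMS. Cpox, a later enzyme of the pathway, was higher in diffMMS than in MMS by 0.51 (adjusted p = 3.80e-04), but by 0.04, not called, on its other probe set. Its 0.30 between TMS and MMS (adjusted p = 0.0239) stood against -0.28 on that probe set. Alas1, the first enzyme, was lower in TMS than in diffMMS by -0.23 (adjusted p = 0.0384), a call lost in 11 of 18 alternatives.

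Of 10 measured genes of iron-sulfur cluster assembly, Iscu, the scaffold protein, was lower in TMS than in diffMMS (-0.46, adjusted p = 3.64e-04) and higher in diffMMS than in MMS (0.62, adjusted p = 2.48e-05). Nubp1, a cytosolic assembly factor, had the opposite signs, 0.44 (adjusted p = 0.00203) and -0.47 (adjusted p = 9.37e-04). The list thus held genes of both directions. Isca1 was lower in TMS than in diffMMS (-0.31, adjusted p = 0.0103) and higher in diffMMS than in MMS (0.24, adjusted p = 0.0273), the second a call lost in 7 of 18 alternatives, and its other probe set, not called, gave -0.17 and 0.12. Nubp2 was lower than in MMS in TMS (-0.27, adjusted p = 0.0362) and in diffMMS (-0.23, adjusted p = 0.0386), each call lost in 5 of 18 alternatives.

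Among the other lipocalins no gene was called between TMS and MMS, where 6.22% of all genes were higher and 7.14% lower. Lcn2, which was chosen for its difference, differed there by 5.42. Of 18 listed genes 13 were measured, 5 of them dim in every group. Apod, apolipoprotein D, averaged 7.23 in TMS, 8.26 in diffMMS and 7.00 in MMS, and was lower in TMS than in diffMMS (-1.03, adjusted p = 0.00756) and higher in diffMMS than in MMS (1.26, adjusted p = 0.00166). Ptgds, prostaglandin D synthase, was higher in diffMMS than in MMS by 0.29 (adjusted p = 0.0324), a call lost in 7 of 18 alternatives. None of the 13 was called higher in TMS in either comparison, and at an unadjusted p under 0.05 there was 1 against MMS and none against diffMMS. Over all genes 6.22% were called higher than in MMS and 12.3% than in diffMMS, so nothing is read from these counts.

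**Figure D5:**
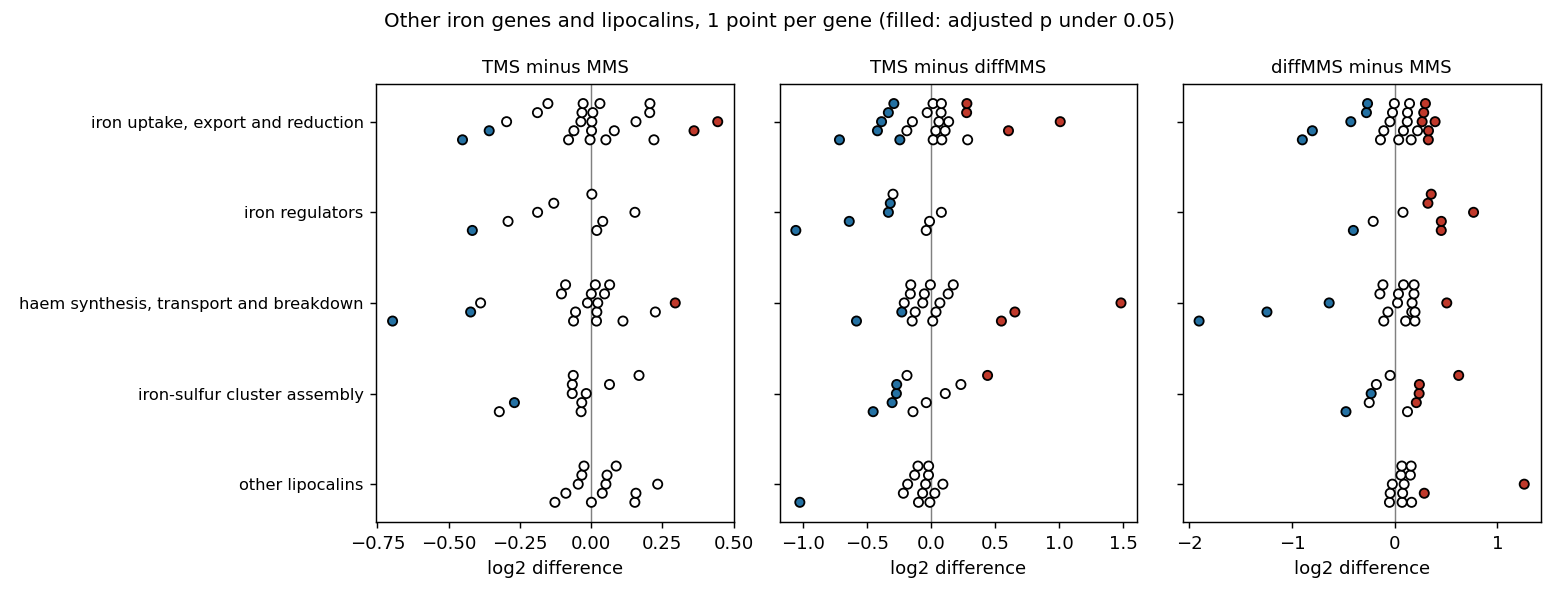
Log2 differences (horizontal axes) of the measured genes of 4 iron lists and of the other lipocalins, 1 point per gene, for TMS minus MMS, TMS minus diffMMS and diffMMS minus MMS. Filled points have an adjusted p under 0.05 in limma, red for higher and blue for lower, and the points lie on both sides of 0 in most rows, with Alad at 1.48 and -1.90 and Apod at -1.03 and 1.26 among the farthest.

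The probe sets most like each member over the 9 arrays were sought among those with an SD of at least 1 on the log2 scale, by Pearson's r as a description. The 9 points fall into 3 groups, so that r mostly follows the group means. For Lcn2, among 205 probe sets, they belonged to Epcam (r = 0.997), Krt18 (r = 0.995) and Muc15 (r = 0.994), genes of epithelial adhesion, a keratin and a mucin. Epcam averaged 9.87 in TMS, 6.07 in diffMMS and 6.31 in MMS. For Cp on 1417494_a_at, among 201, they belonged to Fbxo32 (r = 0.965), Cldn3 (r = 0.963) and Clu (r = 0.956), of which Cldn3 encodes a tight junction protein and averaged 10.32 in TMS, 8.64 in diffMMS and 8.07 in MMS. For Tfrc on 1452661_at, among 205, they belonged to Tnfrsf21 (r = 0.972), Mmp9 (r = 0.957) and Dusp6 (r = 0.952). Dusp6, a phosphatase of the ERK pathway, averaged 9.26 in TMS, 6.06 in diffMMS and 9.48 in MMS, the same low group as Tfrc.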

How the data were processed

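RNA of 3 TMS, 3 diffMMS and 3 MMS populations was hybridized to 9 MOE430A arrays. The authors deposited 1 intensity per probe set and array on a linear scale, already summarised and scaled; the paper names GeneSpring, and the method of summary and the genome build are not given in the sources used here. Array medians were 84.0 to 88.6. Scaling by the authors limits the differences to relative ones, and the small number of arrays limits the precision.

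Before log2 was taken, 8.67 was added to each value (10% of the overall median), which understates the change of dim probe sets, and arrays were quantile normalized because quartiles differed by up to 0.134, above a limit of 0.1. One limma model of the 3 group means (version 3.58.1, R 4.3.3, lmFit and trended eBayes) took in the 9 arrays, with 6 residual degrees of freedom, and two-sided p values were adjusted by Benjamini-Hochberg over 22626 probe sets, leaving out 64 controls, with 0.05 as the threshold. P values measure the spread between these populations alone. The script was tested on simulated data. The platform table gives 1 symbol for 20380 tested probe sets, several for 691 and none for 1555. Promoter sequences are from RefSeq (GRCm38.p6). Proteins and the genome were not used here.

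The members and lists were chosen with earlier results of these data known. Named genes are all members, up to 2 largest rises and falls among called genes of each list, and the 3 most similar probe sets for Lcn2, Cp and Tfrc; Trf had none to compare. Of the marker lists Krt18, Ngp, Elane and S100a8 are also named, picked with values known. Lists use the brightest probe set per gene. Alternatives were other scalings, pseudocounts, a dim filter, variance models, array weights, fewer groups, other probe sets per gene and each array left out. Python 3.11.15 with matplotlib 3.10.9 made the plots.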

Additional observations from a re-analysis of the deposited data

How the results depend on the processing

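Of the 42 differences of the 14 probe sets, 31 kept their side of the threshold in all alternatives and 11 did not in at least 1. None of those past the threshold changed sign in its alternatives; of the others, Tfrc 1452661_at in TMS against MMS ran from -0.28 to 0.30. The Lcn2 difference ran from 5.05 to 5.64 between TMS and MMS and from 5.37 to 5.99 between TMS and diffMMS. With the pseudocount, Cp 1448734_at in TMS against MMS moved, being 1.56 with 50% of the median added and 2.77 with nothing added. The called probe sets of the 14 numbered 7 to 8 in TMS against MMS, 10 to 11 in TMS against diffMMS and 5 to 10 in diffMMS against MMS when each array was left out. Among the 39 calls of the named list genes, 25 held in every alternative.

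Counts over all probe sets and over the iron lists moved more. With array weights 5860 probe sets were called in TMS against MMS, against 3231 without, and 16 iron genes against 9. Leaving out each array gave 1863 to 4088 probe sets and 4 to 10 iron genes in TMS against MMS, the fewest without MMS array 859A (1863 probe sets) and without MMS array 860A (4 genes). In diffMMS against MMS it gave 17 to 27 iron genes, 17 without either of these arrays. The cause was not tested. Dim probe sets have the least signal over background, so that their differences are the least certain.

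No paired analysis was possible because the labels carry no replicate numbers. Single outlying arrays were not tested for within the groups of 3.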
